A study of Mus musculus with 12 samples.

Results

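The data described here came from the macrophages that received no tumor-conditioned medium (TCM): 2 libraries of cells treated with R788 (labelled R788, libraries SJ7 and SJ8) and 2 libraries of untreated cells (labelled NS, libraries SJ1 and SJ2), 4 of the 12 libraries of the series. The libraries were chosen by those labels, and every gene with at least 10 counts in at least 2 of the 12 libraries was tested, 16281 of 54232. All 12 libraries were poly(A)-selected RNA of bone marrow-derived macrophages (BMDMs) from wild-type C57BL/6 mice, grown for 5 days before the treatment. In the R788 group 500 nM R788 was added for 24 h, and the NS group received neither R788 nor TCM. The other 8 libraries were of cells given TCM for the same time, from the mouse neuroblastoma lines NB9464, which carries amplified MYCN, or NBT3L, which does not, each with or without R788. The vehicle of R788, the medium of the cells without TCM during the treatment and the number of animals were not stated. The methods speak of triplicate sequencing, whereas the labels give 2 libraries per group, and n is that of the labels. Nothing stated that the 2 libraries of a group came from separate cultures or animals, so the p-values measure only the spread between these samples, which may be technical.

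Syk is a cytoplasmic tyrosine kinase that binds the phosphorylated activation motifs of immune receptors and of their adaptors, FcRγ (Fcer1g) and DAP12 (Tyrobp). In macrophages it relays signals of activating Fc receptors, C-type lectins, integrins and TREM receptors to PLCγ2, the Card9 complex, ERK and PI3 kinase. R788 (fostamatinib) is a prodrug whose active form, R406, occupies the ATP site of Syk and is known to inhibit other kinases as well. With a single compound at a single dose, the inhibition of Syk and any other action of R788 cannot be told apart.

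The total counts were 50417206 and 50108042 in NS and 50013076 and 56449685 in R788, within the range of the 12 libraries (44977847 to 56449685). Library SJ8 stood apart at low counts: it had the highest total and the fewest genes with at least 1 count, 16149 against 18125 in SJ7. Of the 1312 genes with 10 to 19 counts in SJ1, 37.7% had none in SJ8, 16.1% none in SJ7 and 13.3% none in SJ2, whereas no gene with 200 or more counts in SJ1 was at 0 in any of them. Where the fit with SJ7 as the only R788 library, or with SJ8 as the only one, ended the call of a gene described here or moved a count of list members by over 1.5 times, this is stated. All 12 macrophage markers were detected in the 4 libraries, and their summed normalized count (the count divided by the library's size factor) was between 1661130 and 1889320. Of these markers 4 rose and 3 fell with R788, with log2 fold changes of the 12 from -2.23 to 0.96. Lysozyme (Lyz2), which made up most of the sum, was not called. Defining markers of T cells were near 0, with only 1 of 8 T and NK cell markers tested (Cd4), and 3 of 8 erythroid and 3 of 6 B cell markers were tested, with no call among them.

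A large part of the expressed transcriptome of unstimulated macrophages differed between R788 and NS. Whether NS received the vehicle was not stated, so drug and vehicle cannot be told apart. A gene was called when its DESeq2 adjusted p was under 0.05, and 4327 genes (26.6% of those tested) passed, 1882 higher (11.6%) and 2445 lower (15%) with R788. At least 2-fold, 339 genes were higher (2.08%) and 467 lower (2.87%). With SJ7 alone as the R788 library, 1502 genes were higher (9.23%) and 2142 lower (13.2%), and 3207 of the 4327 calls were made again in the same direction. The median log2 fold change over all genes tested was 0. In the lists below, a share of members near 11.6% higher or 15% lower is that of the transcriptome as a whole. Interferon response, DNA replication and mitosis genes were lower almost without exception and targets of ATF4 were mostly higher.

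**Figure D1:**
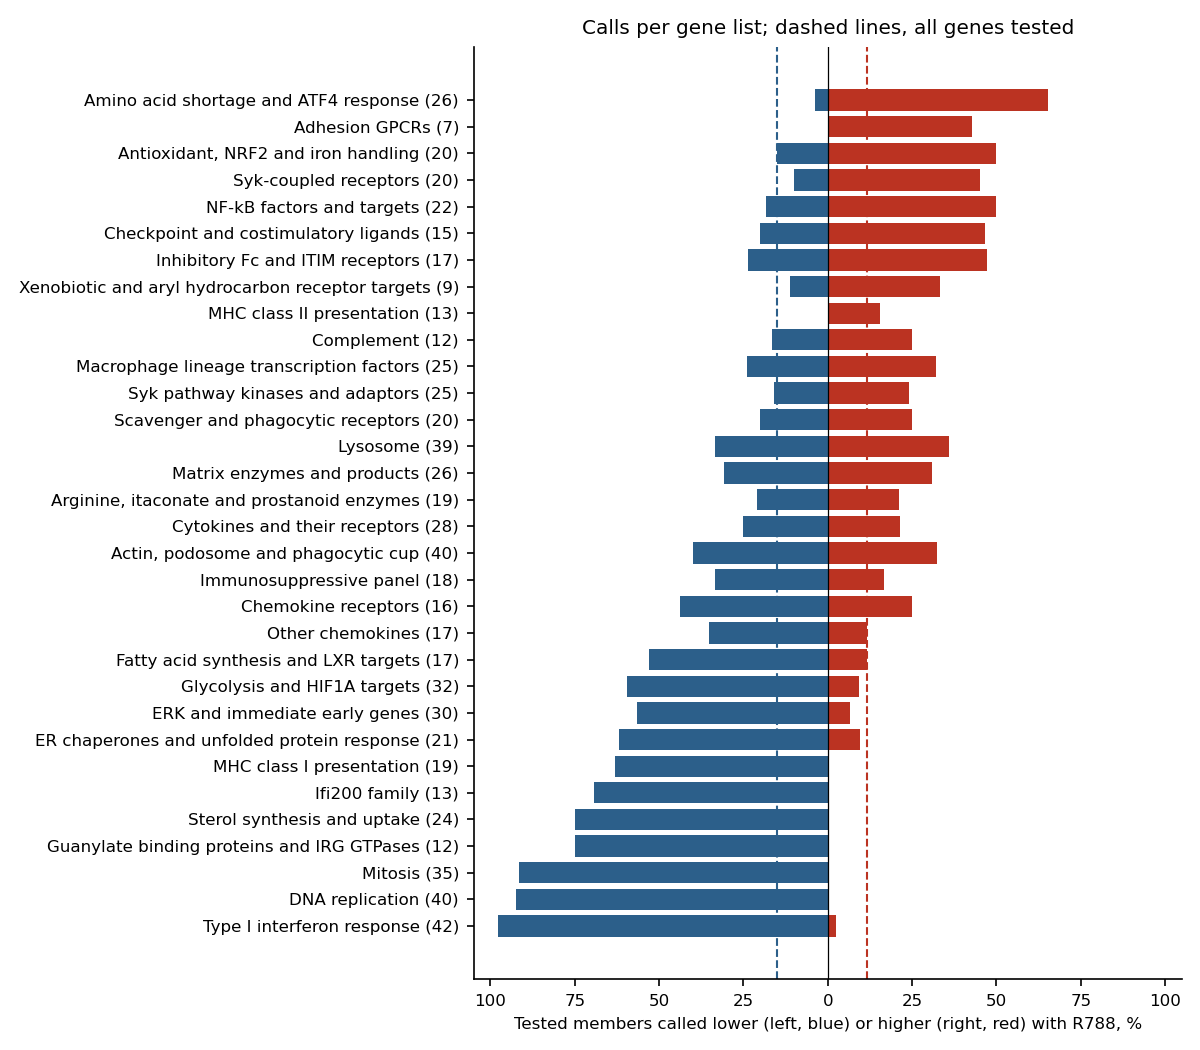
Share of the tested members of each gene list that DESeq2 called lower (blue, left) or higher (red, right) with R788 in cells without TCM, in percent, with the number of members tested in parentheses (lists of at least 7 tested members). The dashed lines mark the shares of all 16281 genes, 15% lower and 11.6% higher. The interferon, DNA replication and mitosis lists reach beyond 90% on the lower side, and the ATF4 list reaches furthest on the higher side.

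Syk itself was checked first, as the target of the drug. Its transcript is not removed by an inhibitor of the kinase, and it was present in all 4 libraries, with normalized counts of 15428 and 14546 in NS and 18344 and 17601 in R788. Both R788 libraries were above both NS libraries, and Syk rose by 1.2-fold (log2 fold change 0.26 ± 0.05, SE, n = 2 per group in every comparison here, DESeq2 adjusted p = 3.42e-06). The receptor adaptors Fcer1g and Tyrobp were not called. Of 25 kinases and adaptors that act with or downstream of Syk, 6 rose and 4 fell. Card9, which couples Syk to NF-kB, rose from 3616 and 3593 to 5882 and 6843 (log2 fold change 0.82 ± 0.09). The Src family kinase Fgr went from 2635 and 2670.1 to 4563 and 4753 (0.81 ± 0.08), and protein kinase C delta (Prkcd) rose by 1.39-fold. In contrast, the PI3 kinase adaptor Pik3ap1 fell from 23235 and 22020.0 to 12022 and 12071 (-0.91 ± 0.05) and the B cell linker Blnk fell by 1.72-fold. Syk, Lyn, Btk, Plcg2, Vav1 and Lcp2 all kept levels between 4973 and 18344 normalized counts. Among these 6 only Syk was called.

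Among the strongest losses were chemokines that recruit monocytes through CCR2. Ccl2, Ccl7 and Ccl12 lie side by side on chromosome 11 (Ccl2 at chr11:82035571-82037453, Ccl7 at chr11:82045712-82047525 and Ccl12 at chr11:82101845-82103400, GRCm38, all on the plus strand), and all 3 fell. Normalized counts of Ccl2 were 23264 and 25789 in NS and 3880.0 and 2947 in R788, a fall of 7.19-fold (log2 fold change -2.85 ± 0.09, DESeq2 adjusted p = 1.29e-227). Ccl7 had 11931 and 12492 in NS and 949 and 984 in R788, a fall of 12.6-fold (-3.66 ± 0.06). Ccl12 had 493 and 619 in NS and 30.9 and 19.96 in R788, a fall of 21.9-fold (-4.46 ± 0.29, adjusted p = 1.14e-50). For each gene both R788 libraries were several fold below both NS libraries, a wider gap than that between the R788 libraries. The fourth CCR2 ligand of the list, Ccl8, had counts in SJ2 only and was not called. Per kilobase of transcript, Ccl2 had a level of 21552 in NS and 2999 in R788, which kept it the most abundant of the 4 with the drug.

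Other inflammatory CC chemokines also fell. Ccl5 went from 1485 and 1606 to 299 and 170.1 (log2 fold change -2.72 ± 0.23), Ccl4 from 1923 and 1979.8 to 406 and 289.8 (-2.49 ± 0.11) and Ccl3 from 2025 and 2208 to 843 and 758 (-1.40 ± 0.07, DESeq2 adjusted p = 4.81e-88). In all of these the groups did not overlap, as was so of 29.4% of all genes in the lower and 26.3% in the higher direction. The interferon-induced chemokine Cxcl10 fell by 4.25-fold and the abundant Ccl9 by 1.4-fold. The neutrophil chemokine Cxcl2 went the other way, from 565 and 577 to 924 and 876 (0.66 ± 0.08), as did platelet factor 4 (Pf4, 0.27 ± 0.07). In all, 6 of 17 tested chemokines outside the CCR2 ligands fell and 2 rose, and with SJ7 alone 6 fell and 4 rose. The fall of Ccl22 was lost with SJ7 alone and in edgeR (edgeR adjusted p = 0.0568).

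Chemoattractant receptors changed in both directions. The fractalkine receptor Cx3cr1 fell by 2.14-fold, C3ar1 by 1.92-fold, Ccr2 by 1.42-fold and C5ar1 by 1.35-fold. The Cxcl12 receptor Cxcr4 had normalized counts of 1099 and 1144 in NS and 3182 and 2710.5 in R788 (log2 fold change 1.39 ± 0.23, DESeq2 adjusted p = 1.5e-08), and the formyl peptide receptor Fpr1 had 1412 and 1606 in NS and 3598 and 2928 in R788 (1.11 ± 0.08). The chemerin receptor Cmklr1 rose by 1.79-fold and Fpr2 by 1.6-fold. Of the 16 receptors, 7 fell and 4 rose. The largest fall of these receptors, that of Ccr3, from 451 and 399 to 25.4 and 30.3 (-3.93 ± 0.47), concerned a gene best known from eosinophils. Of the other mast cell, basophil and eosinophil markers, 5 were tested and none was called, at levels of at most 59.7 normalized counts, and Epx, Cpa3, Ms4a2, Fcer1a and Il5ra were below the filter; the part of such cells in the fall of Ccr3 was not tested. In bulk RNA, fewer cells of a type and less RNA per cell cannot be told apart.

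**Figure D2:**
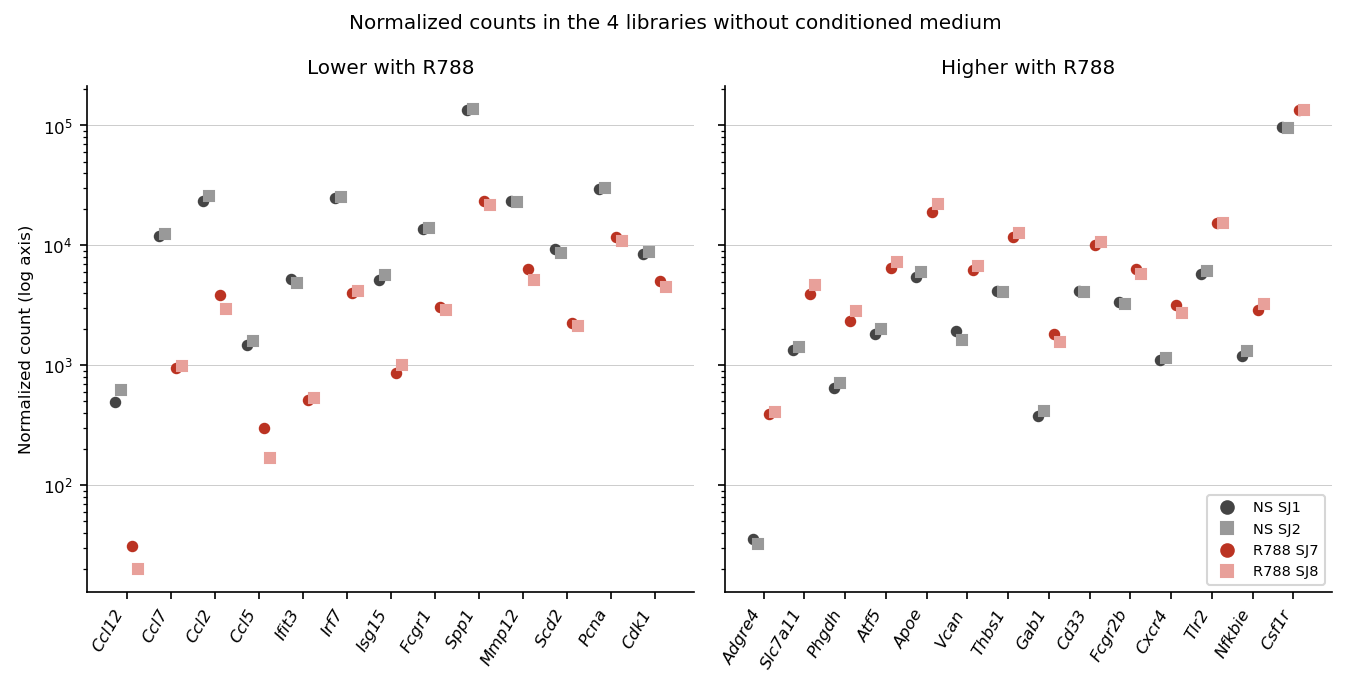
Normalized counts (log axis) of 27 genes in the 2 NS libraries (SJ1 dark gray circle, SJ2 light gray square) and the 2 R788 libraries (SJ7 dark red circle, SJ8 light red square), each point 1 library. The left panel holds genes that fell with R788, from Ccl12 to Cdk1, and the right panel genes that rose, from Adgre4 to Csf1r. In none of the genes do the groups overlap, and Ccl12 and Adgre4 show the widest gaps.

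The type I interferon response was lower throughout. These genes are switched on by a complex that holds Stat2 and Irf9 and encode antiviral effectors, sensors of viral nucleic acid and the factors that keep the response going. Of 42 tested members 41 fell and 1 rose, against 15% and 11.6% of all genes, with a median log2 fold change of -1.57, and 34 fell at least 2-fold. The calls were the same 41 and 1 in number with SJ7 alone and in edgeR, in which 14.1% of all genes were lower and 10.4% higher. The factors that drive the response were among them. Irf7, which amplifies interferon production, had normalized counts of 25056 and 25319 in NS and 4008 and 4138 in R788, a fall of 6.18-fold (log2 fold change -2.63 ± 0.06, DESeq2 adjusted p too small to be stored as other than 0). Stat2 fell by 2.15-fold and Irf9 by 1.27-fold, the smallest fall of the list. Ifnar1, a chain of the interferon receptor, was not lower but slightly higher (0.15 ± 0.05, adjusted p = 0.012).

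Antiviral effectors were among the largest falls of the list. Ifit3, an RNA-binding protein, had 5209.6 and 4887 in NS and 515 and 530.1 in R788 (log2 fold change -3.27 ± 0.18, DESeq2 adjusted p = 3.81e-75). Rsad2 (viperin) had 4010.3 and 3547 in NS and 522 and 582 in R788 (-2.77 ± 0.17), and Mx1, a dynamin-like GTPase, had 2577 and 2960.3 in NS and 348 and 406 in R788 (-2.87 ± 0.18). In these 3 genes the R788 libraries lay close together, far below both NS libraries. The ubiquitin-like modifier Isg15 fell from 5128 and 5633 to 869 and 1001 (-2.52 ± 0.11), Oasl1 from 3702 and 3516 to 485 and 483 (-2.90 ± 0.11) and Ifi44 from 929.8 and 952 to 79.98 and 79.8 (-3.56 ± 0.51). The RNA sensors Ddx58 (RIG-I) and Ifih1 (MDA5) fell by 2.36-fold and 2.004-fold. The exception was Ifi27, a mitochondrial protein counted among interferon-induced genes, which rose from 1361 and 1428 to 3984 and 3404 (1.41 ± 0.09, adjusted p = 2.24e-57). Its relative Ifi27l2a, among the most abundant genes of the list, fell by 2.79-fold.

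The promoters of the interferon list were searched for the core of the interferon-stimulated response element, GAAANNGAAA, on both strands. RefSeq windows (GRCm38.p6) from 250 bases before to 50 bases after the start of transcription were used. Of the 45 genes of the list, 31 had a window matched by symbol, and 16 of these (51.6%) held the letters, against 3.99% of 27025 genes with a window and 3.44% of all 32851 windows of this length. A match is a description of the letters and not of a bound site. The list was made of interferon response genes, so its high share does not bear on the effect of R788. Shown are the windows of the 3 largest falls among members whose window holds a match, and that of Irf7, which has none. The windows of Ifi44 and Oasl1, which fell further than Rsad2 and Ifit1, held no match. Each is written 5′ to 3′ on the strand of the gene, with matches in capitals. Where the match lies on the opposite strand, the capitals read as its reverse complement, TTTCNNTTTC.
Ifit3, chr19:34583279-34583578, plus strand: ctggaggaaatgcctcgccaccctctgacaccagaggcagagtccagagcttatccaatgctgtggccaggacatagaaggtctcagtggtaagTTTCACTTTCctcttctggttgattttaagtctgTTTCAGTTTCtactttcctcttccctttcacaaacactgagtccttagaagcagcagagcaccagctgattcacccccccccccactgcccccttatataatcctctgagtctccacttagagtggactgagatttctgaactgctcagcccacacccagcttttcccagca
Rsad2, chr12:26456403-26456702, minus strand: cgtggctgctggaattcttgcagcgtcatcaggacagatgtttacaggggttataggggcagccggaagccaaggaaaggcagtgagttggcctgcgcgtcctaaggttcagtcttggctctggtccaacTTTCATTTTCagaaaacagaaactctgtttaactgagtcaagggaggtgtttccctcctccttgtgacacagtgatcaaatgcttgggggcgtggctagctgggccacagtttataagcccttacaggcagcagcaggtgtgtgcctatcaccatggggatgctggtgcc
Ifit1, chr19:34640639-34640938, plus strand: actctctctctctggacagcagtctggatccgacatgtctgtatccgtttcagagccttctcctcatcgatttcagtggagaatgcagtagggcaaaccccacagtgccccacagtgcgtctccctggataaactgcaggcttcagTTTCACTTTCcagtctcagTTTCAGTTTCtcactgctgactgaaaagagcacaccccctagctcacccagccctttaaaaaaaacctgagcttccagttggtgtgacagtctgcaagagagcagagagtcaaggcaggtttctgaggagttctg
Irf7, chr7:141266375-141266674, minus strand: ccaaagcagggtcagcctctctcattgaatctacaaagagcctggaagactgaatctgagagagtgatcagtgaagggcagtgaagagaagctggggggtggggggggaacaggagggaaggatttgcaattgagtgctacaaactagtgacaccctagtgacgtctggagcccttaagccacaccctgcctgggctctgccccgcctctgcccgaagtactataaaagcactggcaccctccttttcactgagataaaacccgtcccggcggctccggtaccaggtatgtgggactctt
The capitals lie within the 160 bases before the start in all 3 genes with a match: their first bases are 156 and 122 bases before the start in Ifit3, 120 bases before it in Rsad2, and 104 and 85 bases before it in Ifit1. Ifit1, the third of these genes, fell from 3274 and 3123 to 544 and 426 normalized counts (-2.72 ± 0.14).

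Related interferon-inducible families were lower as well. The Ifi200 family of DNA-binding proteins had 9 of 13 tested members lower and none higher (median log2 fold change -1.65), all 9 at least 2-fold. Ifi204 had normalized counts of 10414 and 9626 in NS and 2692 and 2872 in R788 (-1.85 ± 0.09, DESeq2 adjusted p = 8.34e-93), and Ifi206, Ifi211 and Ifi209 fell by 6.87-fold, 4.59-fold and 4.42-fold. Ifi208 had 41 and 63 counts in NS and none in either R788 library. Its level was at least 19.2-fold lower against a floor of 3 counts per library, but it was not called. The fall of Ifi213 was lost with SJ7 alone (adjusted p = 0.0661). Aim2, the inflammasome sensor of the family, did not pass the test, with 2144 and 2368 in NS and 2409 and 2435 in R788. These genes are near-identical in places, so reads may be split among them.

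Guanylate binding proteins and immunity-related GTPases, which act on vacuoles that hold pathogens, had 9 of 12 tested members lower and none higher (median -1.16). Irgm1 fell from 6949 and 6087 to 2318 and 1901 (-1.63 ± 0.12), Gbp3 from 1077 and 1136 to 322 and 279 (-1.88 ± 0.18) and Iigp1 from 268 and 311 to 55.4 and 46.3 (-2.51 ± 0.54). The call of Gbp6 was lost with SJ7 alone. In antigen presentation, of 19 genes of the class I pathway 12 fell and none rose (median -0.48). The peptide transporter Tap1 fell by 2.19-fold, beta-2 microglobulin (B2m) from 102234 and 107506 to 73248 and 51454 (-0.75 ± 0.15) and the class I transactivator Nlrc5 by 1.61-fold, whereas the heavy chains H2-K1 and H2-D1 were not called, with log2 fold changes of 0.011 ± 0.06 and 0.082 ± 0.06. Of 13 genes of class II presentation 2 rose (15.4%, near the 11.6% of all genes) and none fell. The invariant chain Cd74 had 4720.3 and 4604 in NS and 5428 and 6486 in R788 (0.35 ± 0.09), and the rise of H2-DMa was not called with SJ8 alone or in edgeR (adjusted p = 0.0686).

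Proliferation genes were lower, by less than the interferon genes. BMDMs divide in response to macrophage colony-stimulating factor, and both S-phase and mitosis transcripts were well detected in NS. Of 40 DNA replication genes 37 fell and none rose (median log2 fold change -0.78), again 37 with SJ7 alone and 37 in edgeR. The sliding clamp Pcna had normalized counts of 29326 and 30054 in NS and 11689.9 and 10866 in R788, a fall of 2.63-fold (log2 fold change -1.40 ± 0.06, DESeq2 adjusted p = 6.57e-134). Thymidylate synthase (Tyms) fell by 2.2-fold, Gins2 of the replicative helicase by 2.15-fold and Mcm6 by 1.99-fold. The S-phase cyclins Ccne1 and Ccne2 fell by 1.86-fold and 1.93-fold. Fen1, E2f1 and E2f2 were the 3 that did not pass.

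Of 35 mitosis genes 32 fell and none rose (median -0.61, 31 of them with SJ7 alone). Cdk1, the mitotic kinase, had 8449 and 8840.0 in NS and 5079 and 4512 in R788 (-0.85 ± 0.09, DESeq2 adjusted p = 3.03e-19). The spindle checkpoint kinases Ttk and Bub1 fell by 1.86-fold and 1.84-fold, and cyclin A2 (Ccna2) from 9121 and 8872 to 5559 and 5434 (-0.71 ± 0.07). No member fell 2-fold. Mki67, Cenpf and Cdc20 did not pass, with Mki67 at 22477 and 21047 in NS and 16728 and 20861 in R788. The letters TTTGAA, the core of the cell cycle homology region that mitosis genes carry near their start, were searched on both strands in the same windows. They stood in 22 of the 30 members with a window (73.3%), against 20.2% of genes and 17.9% of windows. The list was made of mitosis genes, so this share does not bear on the effect of R788 either. Shown are the windows of the 2 largest falls among members whose window holds the letters. The window of Bub1, which fell further than Cdk1, did not hold them. Each is written 5′ to 3′ on the strand of the gene, with the match in capitals (TTCAAA where it lies on the opposite strand).
Ttk, chr9:83834439-83834738, plus strand: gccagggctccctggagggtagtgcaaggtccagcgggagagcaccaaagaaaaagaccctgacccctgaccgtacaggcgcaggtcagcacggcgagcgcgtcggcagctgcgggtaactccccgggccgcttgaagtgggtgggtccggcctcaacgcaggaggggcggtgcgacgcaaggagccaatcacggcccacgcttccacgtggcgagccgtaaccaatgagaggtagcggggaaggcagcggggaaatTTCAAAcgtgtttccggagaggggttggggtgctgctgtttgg
Cdk1, chr10:69352863-69353162, minus strand: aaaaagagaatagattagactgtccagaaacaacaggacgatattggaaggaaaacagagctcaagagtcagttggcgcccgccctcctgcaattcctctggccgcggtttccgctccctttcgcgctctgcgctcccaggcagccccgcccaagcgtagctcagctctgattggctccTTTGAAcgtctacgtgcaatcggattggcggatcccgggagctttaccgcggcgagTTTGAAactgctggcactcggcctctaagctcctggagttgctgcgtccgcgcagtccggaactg
The matches of Cdk1 begin 71 and 15 bases before the start, and that of Ttk begins at base 8 counted from the start.

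Transcripts of growth factor signaling fell in part. Of 30 targets and feedback genes of the ERK pathway, 17 fell and 2 rose (median log2 fold change -0.34), and with SJ7 alone 14 fell and 1 rose. Among immediate early factors, Fos had normalized counts of 3438 and 3779 in NS and 1635 and 1440.3 in R788 (-1.23 ± 0.11, DESeq2 adjusted p = 1.08e-29), Atf3 had 11397 and 11508 in NS and 5550.5 and 4989 in R788 (-1.12 ± 0.06) and Myc had 2217 and 2315 in NS and 1053 and 1038 in R788 (-1.12 ± 0.10). Egr1 fell from 148 and 133 to 25.4 and 9.58 (-3.03 ± 0.41). The R788 libraries lay below the NS libraries in each of these. Phosphatases that switch ERK off were divided: Dusp1, Dusp4 and Dusp5 fell by 2.03-fold, 1.84-fold and 2.72-fold, whereas Dusp6 rose (0.31 ± 0.10). The calls of Jun, Plaur and Phlda1 were lost with SJ7 alone.

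Of 22 tested genes of NF-kB signaling, 11 rose and 4 fell (median 0.23). The inhibitor Nfkbie had 1197 and 1321 in NS and 2880.2 and 3270.2 in R788 (1.29 ± 0.13, DESeq2 adjusted p = 3.03e-21), and the subunits Relb and Nfkb2 rose by 1.83-fold and 1.77-fold. Tnfaip2, among the most abundant genes that rose 2-fold, went from 14188 and 13525 to 30295 and 34117 (1.22 ± 0.06); it overlaps Gm40578 on the opposite strand. Birc3, Icam1 and Sod2 rose by 1.62-fold, 1.59-fold and 1.75-fold. Tnip3 fell from 7696 and 7792 to 3307 and 3257 (-1.24 ± 0.06) and Tnfaip3 by 1.27-fold. Toll-like receptor 2, which signals through NF-kB, had 5768 and 6074 in NS and 15296 and 15416 in R788 (1.38 ± 0.05, adjusted p = 2.77e-135).

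Some cytokine transcripts were low in these cells, with Il1b at 52.6 and 55.0 in NS and 65.4 and 60.7 in R788 and Il12a at 0 in all 4 libraries. Of 28 cytokine and receptor genes 6 rose and 7 fell, and with SJ7 alone 8 rose and 4 fell. The interleukin 1 receptor antagonist (Il1rn) fell from 1975 and 2114 to 429.9 and 288 (-2.51 ± 0.12, DESeq2 adjusted p = 1.26e-90). Il10, an inhibitory cytokine, fell from 179 and 169 to 81.8 and 75.8 (-1.14 ± 0.21), and Tnf fell by 1.33-fold. Among receptor chains that rose were Il10ra by 1.5-fold, Csf2ra by 1.48-fold, Csf2rb by 1.38-fold and Il4ra by 1.32-fold. The calls of Il12b and Il1rl1 were lost with SJ7 alone and in edgeR. Among checkpoint and costimulatory ligands 7 of 15 rose and 3 fell. Tnfrsf14 (HVEM) had 821 and 671 in NS and 1798 and 2032 in R788 (1.36 ± 0.16) and Vsir (VISTA) had 11433 and 11435 in NS and 20099.7 and 20829 in R788 (0.84 ± 0.05). Cd276 and Cd40 fell by 2.14-fold and 2.07-fold, and Cd274 (PD-L1) did not pass, with 1657 and 1627 in NS and 1534 and 1484 in R788.

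Of 18 immunosuppressive genes that the study displays, 6 fell and 3 rose (median 0.02), and with SJ7 alone 6 fell and 6 rose. The study displays that panel on libraries of this series and how its genes were chosen was not stated, so its direction is not taken as independent evidence. Arginase 1 (Arg1) fell from 125 and 148 to 23.6 and 20.8 (-2.62 ± 0.30, DESeq2 adjusted p = 4.67e-17), and Ccl5, Il10, Myc, Cd14 and Msr1 were the other members that fell. Cd163, Cxcl2 and Vegfa rose, Cd163 from 628 and 591 to 1183 and 1180.0 (0.96 ± 0.15). Tgfb1 and Stat3 were not called (0.093 ± 0.05 and 0.033 ± 0.07), and Ido1 had no counts in the 4 libraries.

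Receptors that signal through Syk did not move as a block. Of 20 tested 9 rose and 2 fell (median log2 fold change 0.15), and with SJ8 alone 6 rose and 4 fell. Fcgr1, the high-affinity IgG receptor, had normalized counts of 13785 and 13973 in NS and 3045 and 2874 in R788, a fall of 4.69-fold (log2 fold change -2.23 ± 0.06, DESeq2 adjusted p likewise stored as 0). Fcgr4 fell from 2325 and 2329 to 1369 and 1257 (-0.83 ± 0.08). The low-affinity activating receptor Fcgr3 was called higher (0.24 ± 0.08), although SJ8 with 20795 lay close to SJ2 with 20252, and the call was lost with SJ8 alone. The inhibitory Fcgr2b had 3378 and 3233 in NS and 6409 and 5782 in R788 (0.88 ± 0.07, adjusted p = 2.36e-37), so that the R788 libraries had more Fcgr2b and less Fcgr1 than NS. Among C-type lectins of the list, Clec4n (Dectin-2) rose from 2613 and 2672 to 5715 and 5098 (1.03 ± 0.07), Clec4e (Mincle) by 1.41-fold and Clec5a by 1.28-fold. Clec7a (Dectin-1) did not pass, with 507 and 560.4 in NS and 396 and 505 in R788. Csf1r, the receptor of macrophage colony-stimulating factor, rose from 96379 and 94494 to 133837 and 134344 (0.49 ± 0.04).

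ITIM motifs of inhibitory receptors recruit phosphatases against Syk signals. In the list of inhibitory receptors, not all of which carry an ITIM, 8 of 17 members were higher and 4 lower. Cd33 had 4177 and 4052 in NS and 9984 and 10738 in R788 (1.33 ± 0.06, DESeq2 adjusted p = 4.95e-96). Cd200r1 and Cd300a rose by 1.67-fold and 1.53-fold, and Lair1, the sialoadhesin Siglec1 and Clec12a fell by 1.89-fold, 1.76-fold and 1.65-fold. The abundant Sirpa was not called (0.051 ± 0.04). The rise of Lilrb4a was lost with SJ7 alone and in edgeR.

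Genes of amino acid supply had the highest share of rises among the gene lists. ATF4 is the factor that cells make when amino acids run short or eIF2α is phosphorylated, and it activates genes of amino acid synthesis and import. Of 26 tested genes of this response 17 rose and 1 fell, against 11.6% and 15% of all genes (median log2 fold change 0.33). In edgeR 14 rose and 1 fell. The median was 0.38 with SJ7 alone and 0.34 with SJ8 alone, though with SJ8 alone the number that fell grew by over 1.5 times. Phgdh, the entry enzyme of serine synthesis, had normalized counts of 648 and 713 in NS and 2347 and 2861 in R788 (log2 fold change 1.94 ± 0.16, DESeq2 adjusted p = 2.74e-32). Atf5 had 1833 and 1991 in NS and 6489 and 7296 in R788 (1.85 ± 0.10) and the cystine transporter Slc7a11 had 1336 and 1422 in NS and 3964 and 4713 in R788 (1.65 ± 0.09). All 3 rose more than 3-fold, with no overlap between the groups. Asparagine synthetase (Asns), Sesn2, Trib3 and Ddit4 rose by 1.57-fold, 2.14-fold, 2.16-fold and 2.53-fold. Atf4 itself rose from 13269 and 14447 to 16611 and 15992 (0.23 ± 0.06). Psat1, the second enzyme of serine synthesis, was the member that fell (-0.42 ± 0.08). The rise of Vldlr was lost with SJ7 alone and in edgeR.

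**Figure D3:**
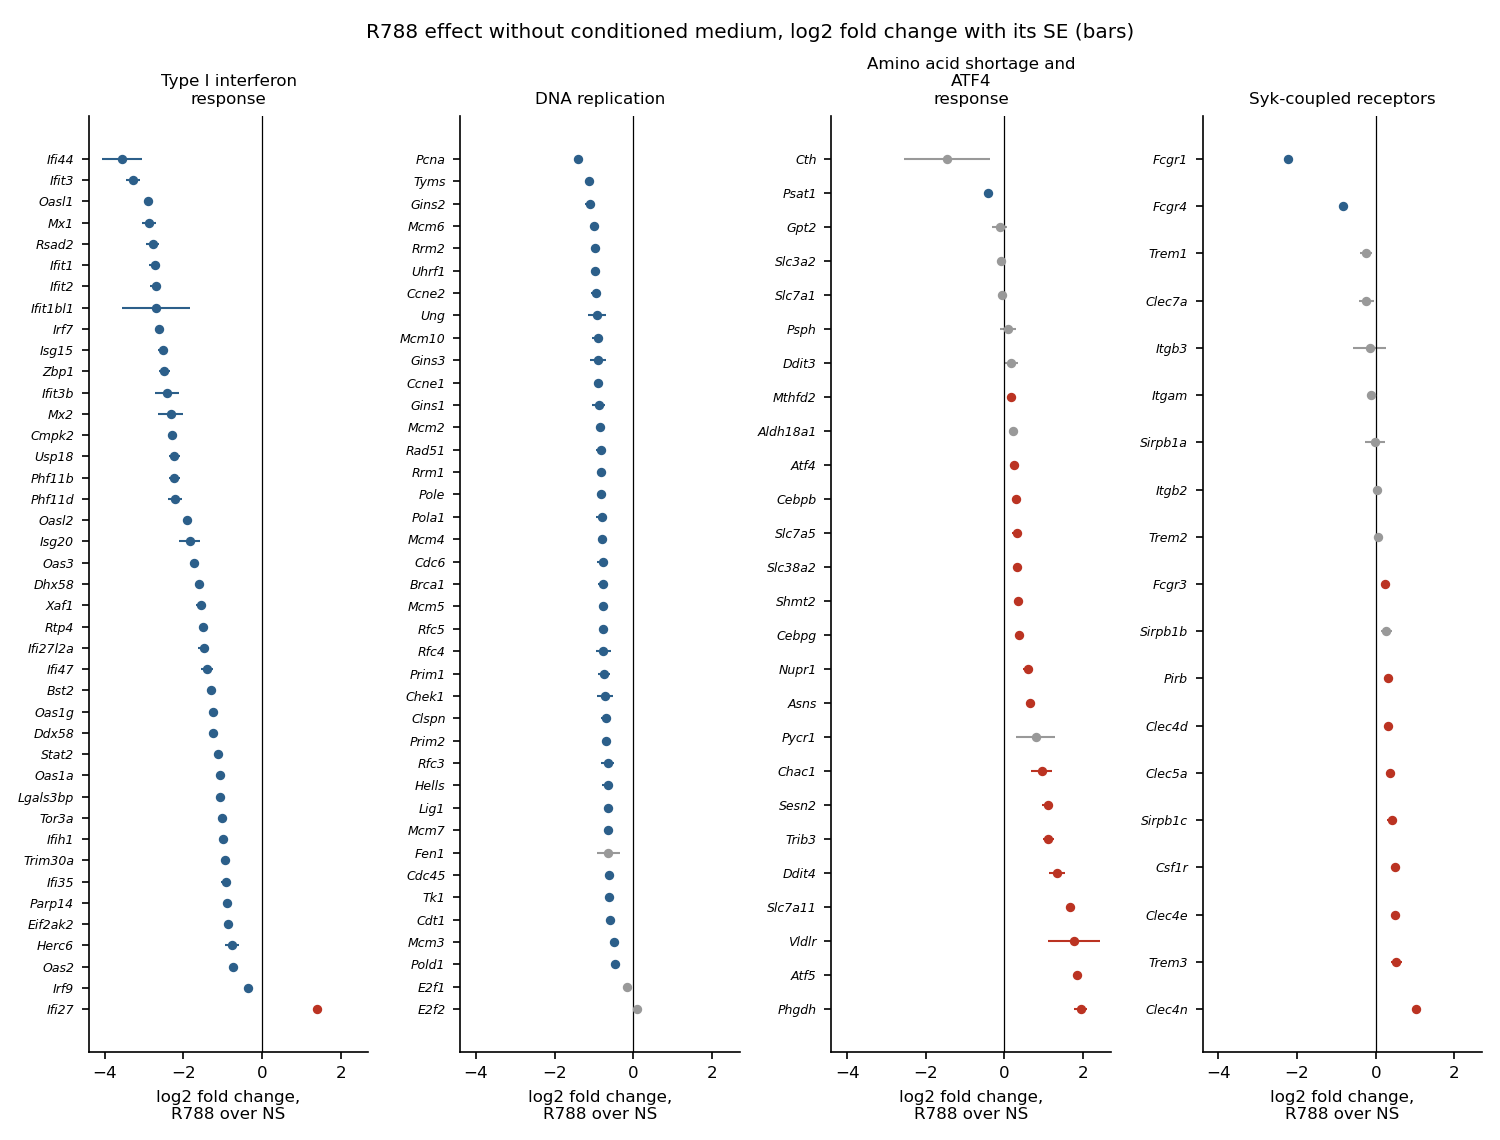
Log2 fold change of R788 over NS (x axis; points, with bars of 1 SE) for the tested members of 4 lists in cells without TCM, colored blue where called lower, red where called higher and gray where not called. Oscar, at most 9.39 normalized counts in any of the 4 libraries, is left out for its wide SE, and 2 other members are not drawn. All but Ifi27 of the interferon genes and nearly all replication genes lie left of 0, and most ATF4 genes lie right of it, up to Phgdh at 1.94.

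Of 20 antioxidant and iron handling genes 10 rose and 3 fell, and with SJ8 alone 9 rose and 5 fell. Gclm, the regulatory subunit of glutathione synthesis, had 15319 and 15674 in NS and 25783 and 27173 in R788 (0.77 ± 0.05, DESeq2 adjusted p = 1.93e-60), and the iron exporter Slc40a1 rose by 1.73-fold. Hmox1 fell (-0.37 ± 0.04). The chaperones of the endoplasmic reticulum were lower: 13 of 21 fell and 2 rose (median -0.37). Calreticulin (Calr) had 71256 and 70138 in NS and 41447 and 39546 in R788 (-0.80 ± 0.04) and BiP (Hspa5) fell by 1.37-fold, whereas Herpud1 rose by 1.98-fold and Xbp1 by 1.17-fold. Among xenobiotic response genes and targets of the aryl hydrocarbon receptor, 3 of 9 rose and 1 fell. The receptor's repressor Ahrr had 1166 and 1131 in NS and 2693 and 2474 in R788 (1.17 ± 0.11), and the textbook target Cyp1a1 had at most 3.79 normalized counts in any of the 4 libraries.

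Glycolysis and targets of HIF1A were lower, with 19 of 32 fallen and 3 risen (median log2 fold change -0.35), and 20 and 3 with SJ7 alone. The shifts were of modest size in abundant transcripts. Lactate dehydrogenase (Ldha) had normalized counts of 68701 and 72074 in NS and 42239 and 40345 in R788 (-0.77 ± 0.05, DESeq2 adjusted p = 6.4e-48), Pgk1 had 27774 and 28966 in NS and 15287 and 13405 in R788 (-0.98 ± 0.06) and Gapdh had 109869 and 115259 in NS and 81412 and 66688 in R788 (-0.60 ± 0.07). The lactate exporter Slc16a3 and the glucose transporter Slc2a1 fell by 1.65-fold and 1.42-fold, Hk2 and Vegfa rose (Vegfa not with SJ8 alone), and Hif1a was not called (0.074 ± 0.07).

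Sterol synthesis fell without exception among its calls: 18 of 24 genes were lower and none higher (median -0.50). Squalene epoxidase (Sqle) had 6201 and 5902 in NS and 3683 and 3633 in R788 (-0.73 ± 0.07, DESeq2 adjusted p = 3.67e-22). In fatty acid synthesis and LXR targets 9 of 17 fell and 2 rose. The stearoyl-CoA desaturase Scd2 fell from 9276 and 8616 to 2246 and 2119.7 (-2.04 ± 0.07), the desaturase Fads2 by 3.12-fold, and the cholesterol exporter Abcg1 from 2251 and 2381 to 854 and 895 (-1.40 ± 0.12). Apolipoprotein E (Apoe), also a target of LXR, went the opposite way, with 5447 and 6055 in NS and 18913 and 22259.7 in R788 (1.84 ± 0.10, adjusted p = 1.2e-79). Soat2, which esterifies cholesterol, was among the 12 largest rises, from 59.2 and 73.01 to 305 and 360.1 (2.33 ± 0.39). The lipid-responsive factor Pparg fell by 3.16-fold and the fatty acid receptor Cd36 by 1.71-fold.

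Secreted matrix genes changed in both directions, 8 of 26 each way (9 higher and 5 lower with SJ7 alone). Osteopontin (Spp1) was the most abundant transcript per kilobase among genes that fell 2-fold, with normalized counts of 135345 and 137111 in NS and 23319 and 21817 in R788, a fall of 6.04-fold (log2 fold change -2.59 ± 0.05); it overlaps Gm42793 on the same strand. The macrophage elastase Mmp12 had 23405 and 23036 in NS and 6354 and 5142 in R788 (-2.01 ± 0.08), and Mmp13, the urokinase Plau and the sheddase Adam8 fell by 3.36-fold, 2.65-fold and 2.13-fold. The R788 libraries were below NS in all 5. Versican (Vcan) went from 1947 and 1642 to 6220.3 and 6787 (1.86 ± 0.09, DESeq2 adjusted p = 1.18e-86) and thrombospondin 1 (Thbs1) from 4139.9 and 4068 to 11788 and 12582 (1.57 ± 0.06). Mmp14, Mmp2 and Mmp8 rose by 1.93-fold, 1.76-fold and 1.55-fold. The falls of Timp1 and Plaur were among the calls lost with SJ7 alone. Stromal cell markers moved with the rises: 5 of 10 were higher and none lower, and their summed normalized count was 2341 and 2059 in NS and 3930 and 4176 in R788. Col1a1 had 606 and 549 in NS and 1186 and 1526 in R788 (1.23 ± 0.18), and Col1a2, Col3a1, Acta2 and Cxcl12 rose by 1.9-fold, 1.87-fold, 1.7-fold and 3.85-fold, whereas Dcn, Lum, Pdgfra, Pdgfrb and Cdh5 were not called. The part of stromal cells in the rise of matrix genes was not tested.

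Osteoclast markers, which macrophages can acquire in culture, had 4 of 9 members lower and none higher. Tartrate-resistant acid phosphatase (Acp5) fell from 748 and 814 to 371 and 237 (-1.37 ± 0.13) and the fusion receptor Dcstamp from 189 and 201 to 23.6 and 44.7 (-2.51 ± 0.51). The calls of Ocstamp and Atp6v0d2 were lost with SJ7 alone, and that of Atp6v0d2 also with SJ8 alone. Among dendritic cell markers 2 of 7 fell (Batf3 and Itgax, neither called with SJ8 alone and Itgax not with SJ7 alone), with summed normalized counts between 285 and 594. Of 11 neutrophil markers 2 rose and 1 fell, and 2 rose and 3 fell with SJ8 alone. Of those called only the receptor Csf3r was called with SJ7 alone; it had 1846 and 1409 in NS and 3603 and 3692 in R788 (1.16 ± 0.10), and the granule genes Ngp and Camp were not called.

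Lysosome genes had the highest summed normalized count of the lists and changed in both directions, 14 higher and 13 lower of 39 (18 and 13 with SJ7 alone). Prosaposin (Psap) rose from 335789 and 332267 to 544461 and 545442 (0.71 ± 0.04, DESeq2 adjusted p = 3.29e-70), cathepsin D (Ctsd) by 1.28-fold and the lysosomal transcription factor Tfeb by 1.55-fold. Cathepsin L (Ctsl) fell from 139701 and 146460.0 to 82195 and 80728 (-0.81 ± 0.04) and cathepsin B (Ctsb) by 1.23-fold. Of 20 scavenger and phagocytic receptors 5 rose and 4 fell. The apoptotic cell receptor Mertk and its ligand Gas6 rose by 1.69-fold and 1.66-fold, while the related receptor Axl fell by 1.89-fold. Stabilin 1 (Stab1) rose from 96302 and 92735 to 149283 and 159770.0 (0.71 ± 0.05), and the folate receptor Folr2 fell from 1156 and 1323 to 443 and 314 (-1.71 ± 0.25). Among 40 actin and podosome genes 13 rose and 16 fell. Myo1e, a motor of the phagocytic cup, had 8189.7 and 7982 in NS and 2635 and 2314 in R788 (-1.71 ± 0.08, adjusted p = 6.15e-108), beta-actin (Actb) fell by 1.5-fold, and Vasp and the integrin Itgb5 rose by 1.59-fold and 1.58-fold.

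Of 19 enzymes of arginine, itaconate and lipid mediators 4 rose and 4 fell. Ptgs1 and Alox5, which start prostanoid and leukotriene synthesis, rose by 1.84-fold and 2.04-fold, and Pla2g7 had 18345 and 17912 in NS and 38652 and 42364 in R788 (1.16 ± 0.05); 1700071M16Rik, antisense to Pla2g7, was also among the largest rises (2.49 ± 0.28), and without strand information their reads cannot be told apart. Ornithine decarboxylase (Odc1) and Nos2 fell by 2.33-fold and 3.72-fold. In the complement list 3 of 12 rose and 2 fell (4 and 1 with SJ7 alone), C3 rising by 1.55-fold, and the C1q chains were not called. Of 25 lineage transcription factors 8 rose and 6 fell: Klf4, Rxra, Cebpa and Maf rose by 1.78-fold, 1.85-fold, 1.57-fold and 1.49-fold, and Spi1 (PU.1) and Irf8 were not called.

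The largest rises were of genes with low counts in NS. Adgre4, an adhesion receptor of macrophages, had normalized counts of 35.7 and 32.2 in NS and 392 and 412 in R788, a rise of 11.8-fold (log2 fold change 3.56 ± 0.36, DESeq2 adjusted p = 6.14e-21), and its relative Adgre5 rose by 1.94-fold. Gab1, an adaptor of receptor tyrosine kinases, went from 378 and 414 to 1817 and 1559 (2.09 ± 0.18). The histidine-degrading enzyme Hal had 116 and 162 in NS and 745 and 616 in R788 (2.29 ± 0.22) and Nat8l had 46.96 and 13.3 in NS and 254 and 326 in R788 (3.27 ± 0.79). Sorbs3, Cox6a2, Fzd1 and Col11a2 rose by 6.74-fold, 7.75-fold, 4.46-fold and 4.58-fold. Ramp1 did not pass with SJ7 alone or in edgeR (adjusted p = 0.141 and 0.0643). Gm10800 and the ribosomal RNA-like genes CT010467.1 and Gm23935, which the rule for the largest or most abundant rises also picked, were high in SJ8 only. Gm23935 had 3905 and 3111 in NS and 4991 and 22720.3 in R788, and none of the 3 was called with SJ7 alone.

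The largest falls besides chemokines and interferon genes were of Nptx1, from 499.6 and 508 to 5.45 and 15.2 (-5.59 ± 0.59, DESeq2 adjusted p = 7.27e-20), and of nestin (Nes), from 1577 and 1469.7 to 94.5 and 148 (-3.64 ± 0.29). The serotonin receptor Htr2b, the cholesterol 25-hydroxylase Ch25h, Serpinb9b, Zfp618 and A230028O05Rik fell by 11.2-fold, 7.83-fold, 7.73-fold, 11.8-fold and 9.7-fold. In each of the 12 largest falls every R788 library was below every NS library, as the rule required. Sorbs3, Cox6a2, Gab1, Htr2b, Ch25h, Serpinb9b and Adam8 each overlap another gene on the opposite strand, and whether counting used the strand was not stated.

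**Figure D4:**
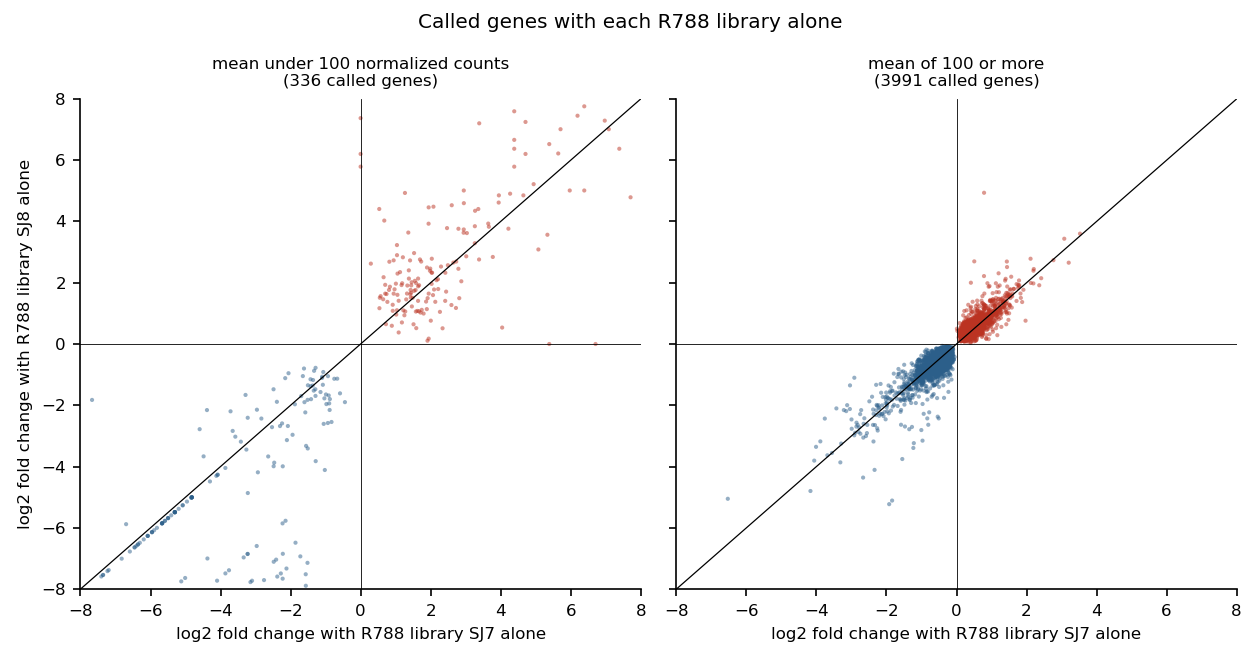
Log2 fold change over NS with SJ7 as the only R788 library (x axis) and with SJ8 as the only one (y axis) for genes called in the fit of both, red where called higher and blue where called lower, with the line of equal values. The 336 called genes with a mean under 100 normalized counts (left) scatter widely, with a group of low values in SJ8, and the 3991 others (right) lie along the line; 21 genes lie outside the range drawn, and both axes share the same NS libraries.

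Whether the response to R788 was that of cells without TCM in particular was tested as the difference between the effect of R788 without TCM and the mean of its effects in NB9464 TCM and NBT3L TCM. By the DESeq2 adjusted p of that difference, 2372 genes (14.6%) differed, 1133 with a more positive (6.96%) and 1239 with a more negative value without TCM (7.61%). The count without NS library SJ2 was 1481. The falls of CCR2 ligands and of the leading interferon genes were seen in each medium. Ccl12 fell with log2 fold changes of -4.46 in cells that got no TCM, -4.34 under NB9464 TCM and -4.36 under NBT3L TCM, and the difference was -0.11 ± 0.35 (DESeq2 adjusted p = 0.882). Irf7 had -2.63, -2.80 and -2.63, with a difference of 0.089 ± 0.07 (adjusted p = 0.454). Ccl2 fell slightly further without TCM, with a difference of -0.44 ± 0.11 (adjusted p = 0.000454). The interferon list as a whole had median log2 fold changes of -1.57, -1.54 and -1.77 in the 3 media, and 17 of its 42 members had a more positive and 8 a more negative effect without TCM. Spp1 fell in each medium (-2.59, -3.18 and -2.34).

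Other changes were larger without TCM. Fcgr1 fell further without TCM (-2.23 against -0.91 and -1.13, difference -1.21 ± 0.07, DESeq2 adjusted p = 2.42e-68). Of the replication genes 19 of 40 had a more negative effect without TCM and 1 a more positive one, with medians of -0.78, -0.50 and -0.38. For mitosis genes 17 of 35 were more negative and none more positive (medians -0.61, -0.32 and -0.21). In glycolysis 17 of 32 were more negative and 1 more positive, and the medians with TCM were -0.0049 and 0.08 against -0.35 without. For Ldha the effects were -0.77, -0.083 and 0.067. Among chaperones 11 of 21 were more negative and 1 more positive, with Calr at -0.80, -0.053 and -0.10.

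Of the 1882 genes called higher without TCM, 1164 had values above 0 with both TCM as well, and for some lists and genes the rise was larger without TCM. Of the 26 ATF4 genes 12 had a more positive effect without TCM and none a more negative one. Slc7a11 had log2 fold changes of 1.65, -0.031 and -0.26 (difference 1.80 ± 0.10, DESeq2 adjusted p = 1.14e-64). Apoe had 1.84, 0.35 and 0.08 (1.62 ± 0.12), and Vcan had 1.86, -0.076 and -0.10 (1.95 ± 0.11). Matrix genes, of which 8 rose and 8 fell without TCM, had 13 of 26 more positive and none more negative. Their median log2 fold changes were -0.09, -0.37 and -0.19 in the 3 media, so a more positive effect could also be a smaller fall. Of 20 Syk-coupled receptors 8 had a more positive and 2 a more negative effect without TCM, and of 17 inhibitory receptors 8 and 5. Among them, Cd33 had 1.33, -0.20 and -0.17 (1.51 ± 0.08), Fcgr2b had 0.88, -0.12 and -0.57 (1.23 ± 0.08) and Clec4n had 1.03, -0.26 and -0.51 (1.42 ± 0.08). Il10 fell without TCM and had values above 0 with it (-1.14 against 0.35 and 0.40, difference -1.52 ± 0.25). The paper names Il10 among the genes that R788 lowered in NB9464 TCM, opposite in sign to the 0.35 here. No call was made here for the effect within a single TCM. Tlr2 was a rise larger without TCM but above 0 in each medium (1.38, 0.74 and 0.49). Per the methods BMDMs were grown in RPMI with serum, and TCM was collected in DMEM without serum, whereas the medium of the cells without TCM during the 24 h was not stated, so the factors of TCM and a difference in base medium cannot be told apart here.

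**Figure D5:**
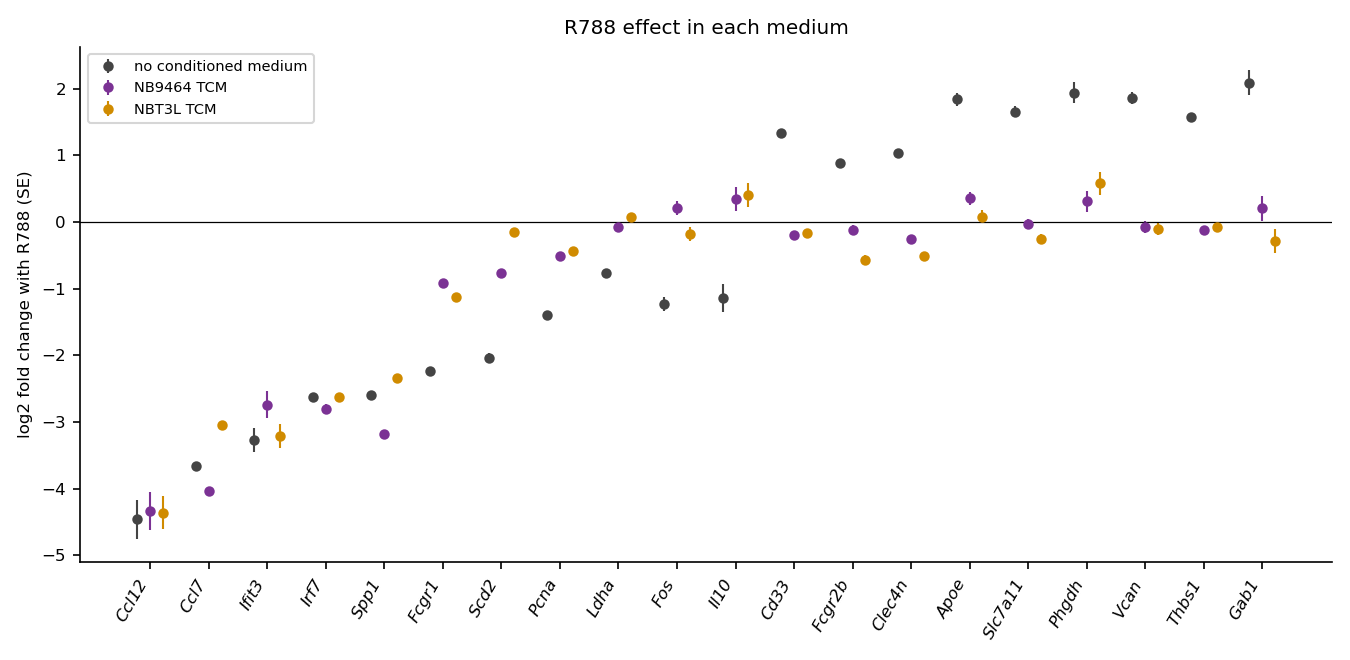
Log2 fold change with R788 (y axis, with bars of 1 SE) of 20 genes in the 3 media, gray marking cells that got no TCM, purple those given NB9464 TCM and orange those given NBT3L TCM, n = 2 libraries per group. Ccl12, Ccl7, Ifit3, Irf7 and Spp1 lie below -2 in each medium, whereas genes from Cd33 to Gab1 lie above 0.8 without TCM and below it with either TCM.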

How the data were processed

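Counts in the deposited table were whole numbers, 1 value per Ensembl gene ID and library. Per the submitters' processing notes and the study's methods, the authors mapped reads to mm10 with STAR 2.6.1d and quantified them with Salmon 1.4.0, and the notes also name SAMtools 1.9, Picard 2.26 and MultiQC 1.11. Strand use and the treatment of reads that map to several places were not given in the sources used here. Sequencing was paired-end per the labels but single-read per the methods. Even values made up 65.2% to 67.9% of counts from 1 to 40, so a fit with every count halved was among the alternatives.

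Groups came from the labels, and the labels' library number served as the replicate name. Symbols and positions were those of GENCODE M21 on GRCm38 (54165 of 54232 IDs matched), 1-based. The count minimum was 10, to be reached in 2 of the 12 libraries, and genes past it entered DESeq2 1.42.0 in R 4.3.3. There was 1 fit of 6 group means over 12 libraries, with Wald tests and unshrunken log2 fold changes. Benjamini-Hochberg adjustment covered the genes that passed the independent filtering of DESeq2 by mean count. The 2 contrasts were R788 against NS, and that effect minus the mean effect in both TCM. All tests were two-sided. Genes without an adjusted p were not called. The scripts were tested on simulated data.

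The genes, lists, markers and tests were chosen with earlier results of these data known. Named were Syk, in each direction the 12 largest changes among called genes whose groups did not overlap and whose mean normalized count reached 100, the 6 most abundant per kilobase among called genes changed at least 2-fold, up to 6 leading members of each list plus its defining members, and the 6 largest differences of effect. Other list members were named after their values were seen. Alternatives were edgeR 4.0.16 (quasi-likelihood test with TMM scaling), TMM within DESeq2, other count filters, no independent filtering, a 2-fold minimum, a fit of the 4 libraries compared, apeglm 1.24.0 shrinkage and leaving out each of the 4 libraries in turn. Promoter windows were those of RefSeq on GRCm38.p6. A few genes that were tested and counted in their lists are not reported here by name.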

Additional observations from a re-analysis of the deposited data

Results flagged for a closer look

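The effect of R788 without TCM differed from its mean effect in both TCM for 2372 genes (DESeq2 adjusted p of the difference under 0.05), and the 6 largest differences in each direction were looked at in the counts. On the positive side these were Edn1 (log2 difference 8.92), Gm1720 (4.10), Ifi213 (3.76), Cxcl5 (3.62), Ptger3 (3.12) and Adh7 (2.63). Endothelin 1 (Edn1) had no counts in NS and 26 and 28 in R788, at least 8.12-fold higher against a floor of 3 counts per library, whereas with TCM R788 took it from between 268 and 590 counts to between 101 and 132. Ptger3, a prostaglandin E2 receptor, had 124 and 85 counts in NS and 295 and 703 in R788, against 67 to 91 with TCM alone and 26 to 58 with TCM and R788. Ifi213 fell in every medium, from 966 and 980 to 143 and 184 counts without TCM, and from between 80 and 125 to between 0 and 12 with TCM. Cxcl5 had 2 and 6 counts in NS and 23 and 65 in R788, and Adh7 had 6 in each NS library and 28 and 30 in R788. Gm1720 had 8 counts in SJ7 and none in the other 3 libraries without TCM.

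On the negative side were Draxin (-6.47), Ascl2 (-5.78), Gm6553 (-5.65), Itgb8 (-5.12), Zfp811 (-4.42) and U90926 (-4.17). All 6 rested on at most 33 counts in any library without TCM. In the R788 libraries 4 of them had no count and Gm6553 and Zfp811 had at most 2, while with TCM they had between 62 and 12643 counts per library. Ptger3 and Ifi213 were the only 2 of the 12 with more than 80 counts in every NS library.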

How the results depend on the processing

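The count of 4327 genes (1882 higher and 2445 lower with R788) was 4002 in edgeR and 3158 in a fit of the 4 libraries alone, and 806 (339 higher and 467 lower) with a 2-fold minimum. Called with each R788 library alone, a criterion added after seeing the data, were 2689 (1112 higher and 1577 lower). Leaving out 1 of the 4 libraries gave 3070 to 4678 genes, 1326 to 1887 higher and 1744 to 2791 lower. Genes whose effect of R788 differed with TCM numbered 2372, 1858 in edgeR and 353 with a 2-fold minimum (197 more positive and 156 more negative), and 1481 to 3235 with 1 library left out (754 to 1384 more positive and 727 to 1851 more negative), the lowest without NS library SJ2 (1481, with 754 and 727). The fit of 4 libraries was not run for that difference, which needs all 12. Over all settings, named genes kept their direction and side of the threshold in 2962 values, lost the call in 298 and reversed in 1. The 2962 include 224 values of apeglm shrinkage, which kept the adjusted p of the main fit and could not lose a call. The 2-fold minimum, no independent filtering and the calls with each R788 library alone kept the main log2 fold change and could not reverse. Counts of called genes stayed within 1.5 times in 298 values and moved further in 29. The reversal was Gm1720, whose difference of effects ranged from -0.45 without SJ7 to 5.18 without SJ8. No paired analysis was possible because the labels share no replicate numbers across groups. Genes under about 200 counts were limited by the losses in SJ8, and the cause of those losses was not tested. The R788 libraries also differed more from each other than the NS libraries at higher levels. The SD of the log2 difference was 0.37 for R788 and 0.22 for NS at 300 to 1000 normalized counts. At 1000 or more it was 0.22 and 0.13.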
